A study of Homo sapiens with 6 samples.

Results

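The miR-23/27/24 miRNAs are made from paralogous clusters, an a copy on chromosome band 19p13 (hairpins MIR23A, MIR27A and MIR24-2) and a b copy on 9q22 (MIR23B, MIR27B and MIR24-1). Their mature products were taken by name from a table of 2656 mature miRNAs. The names were miR-23a-3p, miR-23a-5p, miR-23b-3p, miR-23b-5p, miR-27a-3p, miR-27a-5p, miR-27b-3p, miR-27b-5p, miR-24-3p and miR-24-2-5p, and all 10 were listed. Small RNA had been sequenced from KPL4, an established human breast adenocarcinoma line, to compare cells without and with the estrogen receptor ERβ, encoded by ESR2. Of the 6 libraries, 3 came from ERβ knockout cells and are called knockout libraries S1, S2 and 3. The other 3 came from ERβ knockout cells with transfected, exogenous ERβ and are called ERβ libraries 1, 2 and 3. The ESR2 knockout is thus shared by both groups. The sample titles name no empty-vector control and do not say whether the knockout cells carried an empty vector. The sources used here do not say whether the knockout is a single clone, and an effect of ERβ and other differences between the groups cannot be told apart.

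A miRNA hairpin is cut by Drosha and Dicer into a duplex, of which usually a single strand, the guide, stays in an Argonaute protein and directs it to messenger RNAs that pair with its seed. In these clusters the 3p strand is the usual guide. miR-23a and miR-23b are known to repress glutaminase and were linked to MYC. miR-27a and miR-27b are known to repress FOXO1 and PPARG, and miR-27a also ZBTB10, a repressor of Sp transcription factors, in breast cancer cells. miR-24 is known to repress cell-cycle genes.

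The 3p guides are shown because the comparison of the clusters rests on how little they differ. They are RefSeq sequences on GRCh38.p14, 5′ to 3′, with the seed (bases 2 to 8) in capitals.
miR-23a-3p: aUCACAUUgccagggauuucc
miR-23b-3p: aUCACAUUgccagggauuaccac
miR-27a-3p: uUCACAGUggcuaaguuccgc
miR-27b-3p: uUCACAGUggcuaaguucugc
miR-24-3p: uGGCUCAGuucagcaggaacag

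miR-23a-3p and miR-23b-3p share their seed and their first 18 bases. They differ by U19A (the base of the a copy, the position from the 5′ end, the base of the b copy), and the b copy is 2 bases longer. miR-27a-3p and miR-27b-3p share their seed and differ only by C19U. A read that ends before base 19 therefore belongs to either copy. miR-24-3p has an identical sequence in both clusters, so its counts cannot be divided between them. The passenger 5p strands differ far more. The pair of miR-23 5p strands is shown because they keep a common seed despite 7 differing bases, and the pair of miR-27 5p strands because their seeds differ.
miR-23a-5p: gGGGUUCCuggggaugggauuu
miR-23b-5p: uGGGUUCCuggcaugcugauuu
miR-27a-5p: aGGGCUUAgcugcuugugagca
miR-27b-5p: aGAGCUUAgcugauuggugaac

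The 19p13 hairpins lie on the minus strand of chromosome 19, MIR23A at chr19:13836587-13836659, MIR27A at chr19:13836440-13836517 and MIR24-2 at chr19:13836287-13836359. All 3 fall in the single exon of AC020916.1, a noncoding gene on the same strand in GENCODE release 29. The 9q22 hairpins lie on the plus strand of chromosome 9, MIR23B at chr9:95085208-95085304, MIR27B at chr9:95085445-95085541 and MIR24-1 at chr9:95086021-95086088. MIR23B and MIR27B are intronic in all 7 annotated transcripts of the protein-coding gene C9orf3 that span them, and MIR24-1 overlaps an exon of 1 of the 7. The order of the hairpins is the same in both copies, and the 19p13 copy spans 373 bases against 881 bases for the 9q22 copy.

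**Figure D1:**
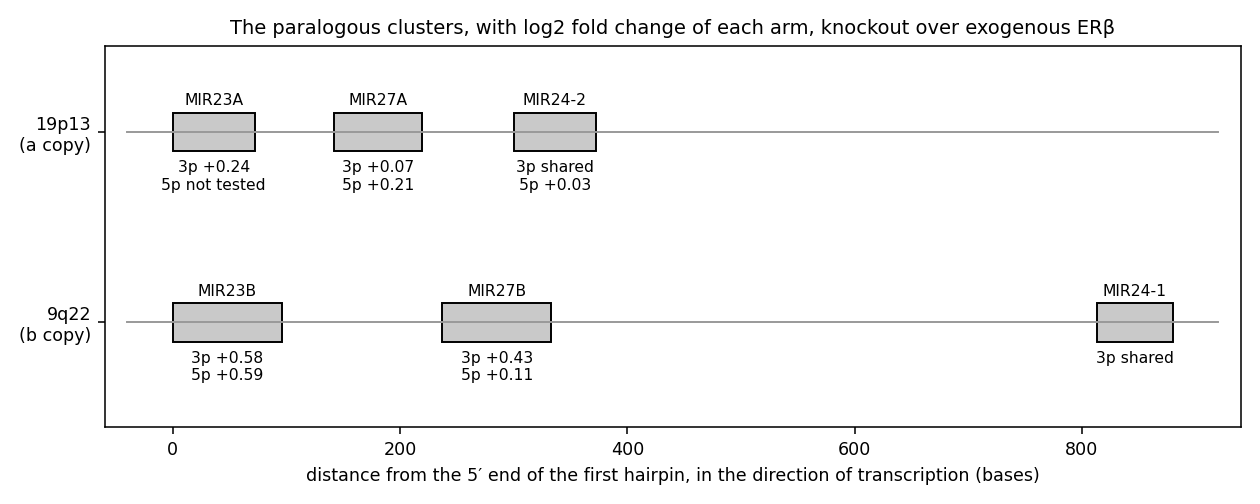
Map of the 19p13 (a) and 9q22 (b) clusters. The x axis is the distance in bases from the 5′ end of the first hairpin in the direction of transcription. Boxes are hairpins, and the numbers below them are log2 fold changes of each arm, knockout over exogenous ERβ. The values of miR-23b-3p (+0.58) and miR-27b-3p (+0.43) are larger than those of miR-23a-3p (+0.24) and miR-27a-3p (+0.07).

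The libraries held 10288415 to 14296902 counts in total. Knockout library S2 stood apart, with a chi-square per degree of freedom of 308 and 334 against the other knockout libraries, where the other within-group pairs had 12.2 to 21.2. The labelled epithelial origin was checked on 7 markers such as miR-200c-3p and miR-141-3p, whose summed level was 94400 to 110000 CPM (counts per library total, the totals adjusted by trimmed-mean, TMM, factors) in the knockout libraries, against 93100 to 97900 CPM in the ERβ libraries; 3 were higher and 1 lower in knockout cells. Of 6 fibroblast or muscle markers 3 could be tested and all 3 were higher in knockout cells, with a summed level of 251 to 304 CPM against 169 to 175 CPM in ERβ libraries. Most of that sum was miR-199a-3p, with 284, 240 and 291 CPM in the knockout libraries, against 165, 169 and 171 CPM in the ERβ libraries (log2 fold change, knockout over ERβ, 0.69; adjusted p = 7.68e-04, edgeR). miR-143-3p (1.15; adjusted p = 5.45e-04, edgeR) and the muscle miRNA miR-1-3p (2.67; adjusted p = 4.67e-04, edgeR) were the others, at 8.65 CPM or less in every library. Of the 3 too rare to test, miR-145-5p had 6, 5 and 5 counts in the knockout libraries, against 1, 4 and 0 counts in the ERβ libraries, and miR-214-3p and miR-133a-3p had overlapping ranges. The endothelial pair miR-126-3p and miR-126-5p summed to 21600 to 23200 CPM in knockout and 18100 to 20000 CPM in ERβ libraries, with 1 of 2 higher. The 4 blood markers summed to 12.6 to 18.3 CPM in knockout and 14.1 to 16.6 CPM in ERβ libraries. The liver marker miR-122-5p had 17.2 to 20.5 CPM in knockout and 20.1 to 28.7 CPM in ERβ libraries. None of the 2 tested blood markers and not the liver marker passed. The part of other cells in the results below was not tested. In bulk RNA a change in level per cell and a change in the share of cells that express a miRNA cannot be told apart.

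The 10 members together took 4.58, 4.79 and 4.59% of all counts in the knockout libraries, against 4.12, 3.93 and 4.11% in the ERβ libraries. The groups did not overlap, and the exact two-sided permutation p was 0.10, the smallest that 3 against 3 libraries can give. Nearly all of these counts came from the 5 guides, each at 3385 CPM or more in every library. In knockout cells the order was miR-27b-3p, miR-23a-3p, miR-24-3p, miR-27a-3p and miR-23b-3p, with no overlap between neighbours; the order and the separation were the same in ERβ cells. The levels compare read counts of mature RNAs of 21 to 23 bases, without correction for how well each sequence is ligated. By the counts under each name, the more abundant copy was the 19p13 copy for miR-23 and the 9q22 copy for miR-27. The 5p strands were far rarer. miR-27a-5p, miR-27b-5p and miR-23b-5p averaged 66.1, 30.4 and 25.4 CPM in knockout cells and 57.2, 28.04 and 16.97 CPM in ERβ cells, with overlapping ranges for miR-27b-5p and miR-23b-5p in knockout cells only. miR-24-2-5p averaged 1.43 CPM in knockout and 1.42 CPM in ERβ cells, and in knockout cells its range overlapped that of miR-23a-5p, the rarest member.

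**Figure D2:**
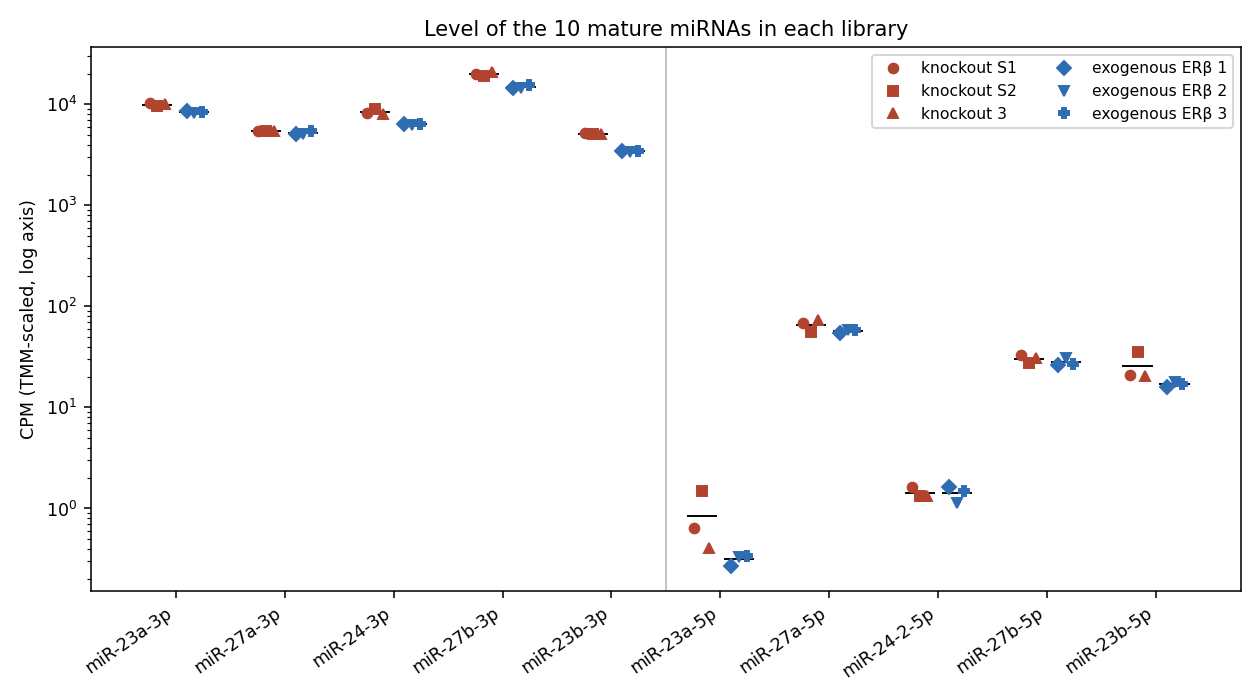
Level of each member in each library, in TMM-scaled CPM on a log axis. Red points are knockout libraries, blue points ERβ libraries and black lines group means (n = 3); the 5 guides lie at 3385 CPM or more and the 5p strands below 100 CPM.

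miR-23b-3p had 5173, 5104 and 5071 CPM in the knockout libraries, against 3486, 3385 and 3422 CPM in the ERβ libraries. Every knockout library lay above every ERβ library, and the spread within a group was 1.02% of the mean in knockout and 1.49% in ERβ cells. The log2 fold change, knockout over ERβ, was 0.58 ± 0.06 (SE, n = 3 per group; adjusted p = 1.61e-04 by Benjamini-Hochberg over the 783 tested miRNAs, quasi-likelihood test of edgeR), or 1.49-fold. All log2 fold changes below have this direction and n, and all adjusted p-values come from this fit unless another is named.

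Its cluster mate miR-27b-3p, the most abundant member, had 20152, 19113 and 20884 CPM in the knockout libraries, against 14441, 14473 and 15584 CPM in the ERβ libraries. The groups did not overlap here either. The log2 fold change was 0.43 ± 0.07 (adjusted p = 0.00149), or 1.35-fold.

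The 19p13 copies differed less between the groups. miR-23a-3p had 10202, 9689 and 10015 CPM in the knockout libraries, against 8686, 8240 and 8466 CPM in the ERβ libraries. The ranges were separate, and the log2 fold change of 0.24 ± 0.06 passed (adjusted p = 0.0228). This call was lost when any library other than knockout library S2 was left out, with adjusted p = 0.0837 without knockout library S1, 0.0625 without knockout library 3, 0.0864 without ERβ library 1, 0.181 without ERβ library 2 and 0.0993 without ERβ library 3, and was kept without knockout library S2 (adjusted p = 2.66e-05). It was also lost with upper-quartile factors (0.12; adjusted p = 0.182), library totals (0.08; adjusted p = 0.363), no filter (adjusted p = 0.207) and the DESeq2 test (adjusted p = 0.0542).

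miR-27a-3p had 5462, 5427 and 5452 CPM in the knockout libraries, against 5080, 5052 and 5400 CPM in the ERβ libraries. The ranges were separate by a small gap, since ERβ library 3 lay close to the knockout level. The log2 fold change was 0.07 ± 0.06, with a 95% interval of -0.07 to 0.21, and did not pass (adjusted p = 0.455). Its sign turned under scaling by upper quartiles (-0.04) and by library totals (-0.08).

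miR-24-3p, the guide shared by both clusters, had 8259, 8965 and 8013 CPM in the knockout libraries, against 6439, 6300 and 6459 CPM in the ERβ libraries. The groups did not overlap, and knockout library S2 was the highest. The log2 fold change of 0.39 ± 0.07 passed (adjusted p = 0.00264) and lay between those of the a and b copies of miR-23 and miR-27. With library totals it was 0.24 and did not pass (adjusted p = 0.0509).

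Of the 9 members abundant enough to test, 4 were thus higher in knockout cells and 0 lower. Among all 783 tested miRNAs 104 were higher in knockout cells (13.3%) and 77 lower (9.83%), together 23.1%. The knockout range lay above the ERβ range in 6 of the 9, as in 20.9% of all tested miRNAs, while 39.8% had separate ranges in either direction (18.9% with the knockout range below). All tested miRNAs were not matched to the members in level, and the guides among the members are abundant. The median log2 fold change of the 9 was 0.24, beside 0.01 over all tested miRNAs. Scaling moved these values: the median over all tested miRNAs shifted by -0.112 when libraries were scaled by upper quartiles and by -0.153 when scaled by totals. The calls over all miRNAs were then 70 higher and 123 lower, and 61 higher and 146 lower. miR-23b-3p and miR-27b-3p kept their calls under both scalings, at 0.46 and 0.32 with upper-quartile factors and at 0.42 and 0.28 with library totals. The counts of higher members were 3 and 2 under these scalings.

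**Figure D3:**
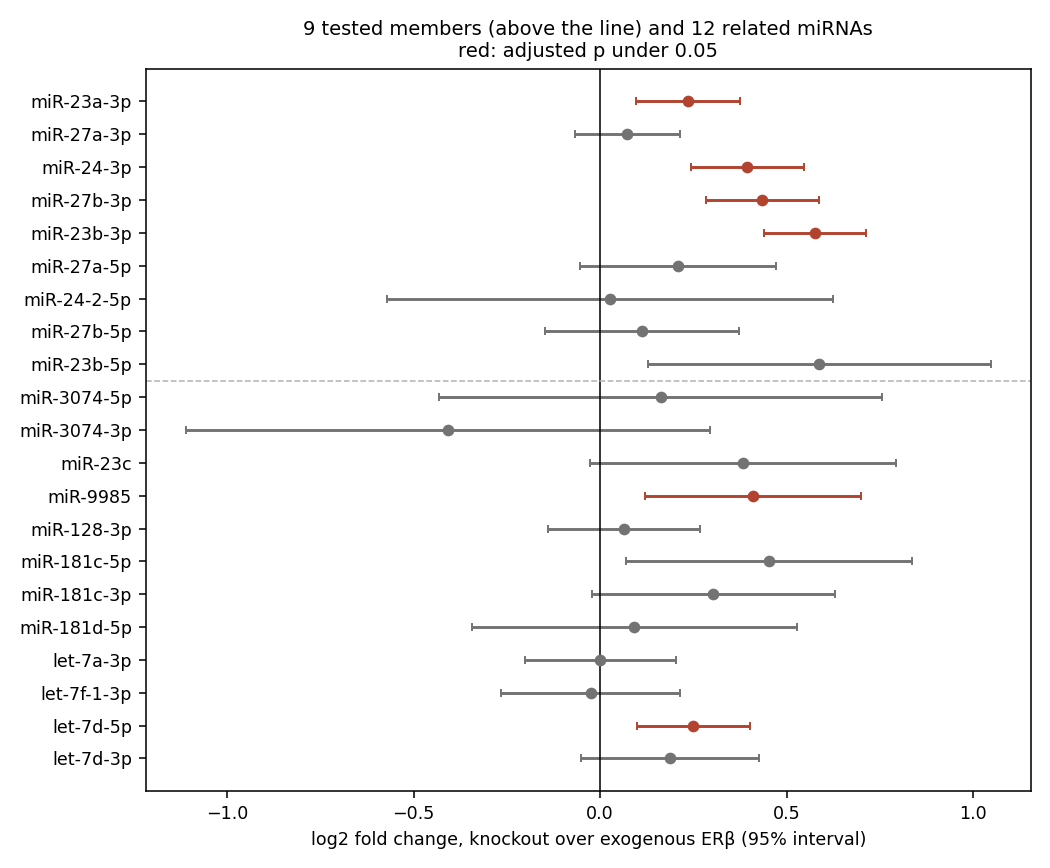
Log2 fold change, knockout over exogenous ERβ, with its 95% interval, for the 9 tested members (above the dashed line) and 12 related miRNAs described further on. Red marks an adjusted p under 0.05; miR-23b-3p (0.58), miR-27b-3p (0.43), miR-24-3p (0.39) and miR-23a-3p (0.24) are red among the members.

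The copies were also set against each other within each library, which removes any library scaling. miR-23b-3p made up 33.7, 34.5 and 33.6% of the miR-23 guide counts (a and b copy together) in the knockout libraries, against 28.6, 29.1 and 28.8% in the ERβ libraries. The knockout libraries all lay above the ERβ libraries, with means of 33.9 ± 0.504% and 28.9 ± 0.246% (SD, n = 3 each). The log2 ratio of b to a copy differed by 0.34 ± 0.02 (SE). miR-27b-3p made up 78.7, 77.9 and 79.3% of the miR-27 guide counts in the knockout libraries, against 74.0, 74.1 and 74.3% in the ERβ libraries. The groups were again apart, with means of 78.6 ± 0.707% and 74.1 ± 0.145%, and the log2 ratio of b to a copy differed by 0.36 ± 0.04 (SE). Each of these differences had an exact two-sided permutation p of 0.10, the smallest possible here, and 0.16 after adjustment over the 8 ratios tested, so neither could pass at this number of libraries. Leaving out a library changed the difference to between 4.78 and 5.23 percentage points for miR-23 and between 4.16 and 4.86 for miR-27. The counts of all 4 guides were partly fractions, 5 or 6 of the 6 values of each, as where reads were divided among names. The sources used here do not state how reads common to both copies were divided, and their part in these shares was not tested.

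**Figure D4:**
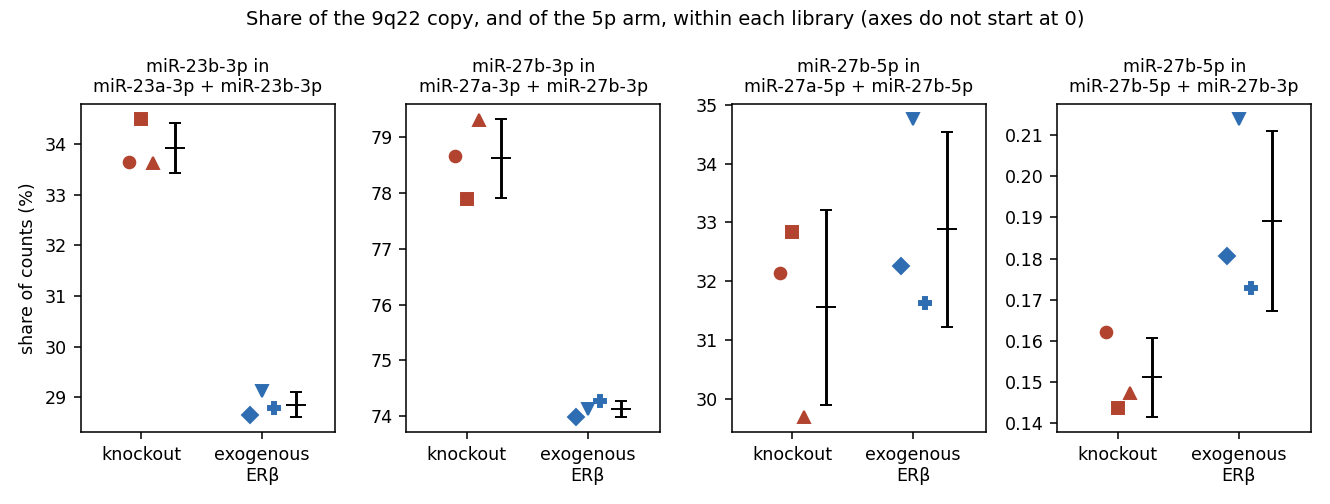
Shares of counts within each library, in percent, with group mean and SD (black, n = 3); the y axes do not start at 0. Knockout libraries (red, left) lie above ERβ libraries (blue, right) for the 9q22 share of the miR-23 and miR-27 guides, overlap for the 9q22 share of the miR-27 5p strands, and lie below for the 5p share of miR-27b.

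For the passenger strands of miR-27 neither copy passed the test. miR-27b-5p had 32.7, 27.5 and 30.8 CPM in the knockout libraries, against 26.1, 31.0 and 26.98 CPM in the ERβ libraries. The groups overlapped, and the log2 fold change of 0.11 ± 0.11 did not pass (95% interval -0.15 to 0.37; adjusted p = 0.548). miR-27a-5p had 69.1, 56.3 and 73.0 CPM in the knockout libraries, against 54.9, 58.2 and 58.3 CPM in the ERβ libraries. Knockout library S2 lay within the ERβ range, and the log2 fold change of 0.21 ± 0.12 did not pass (adjusted p = 0.239); without knockout library S2 it was 0.31 and passed (adjusted p = 7.83e-04). The 9q22 share of the miR-27 5p strands was 31.5 ± 1.66% in knockout and 32.9 ± 1.66% in ERβ cells, with overlapping ranges (exact permutation p = 0.50, n = 3 each).

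The 5p strand of miR-27b was 0.162, 0.144 and 0.147% of the miR-27b reads in the knockout libraries, against 0.181, 0.214 and 0.173% in the ERβ libraries. All knockout libraries lay below all ERβ libraries, and the log2 ratio of 5p to 3p differed by -0.32 ± 0.11 (SE), with an exact permutation p of 0.10 (adjusted p = 0.16, n = 3 each). For miR-27a the 5p share was 1.20 ± 0.154% in knockout and 1.09 ± 0.0408% in ERβ cells, with overlapping ranges (exact permutation p = 0.40, n = 3 each).

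miR-23b-5p had 20.7, 35.04 and 20.5 CPM in the knockout libraries, against 15.9, 17.8 and 17.1 CPM in the ERβ libraries. Knockout library S2 was far above the other knockout libraries, and the groups did not overlap. The log2 fold change of 0.59 ± 0.20 did not pass (adjusted p = 0.0681). Over 14 alternatives, listed further on, it passed in only 5 and had an adjusted p of up to 0.245 (edgeR with a replicate block). Without knockout library S2 it was 0.28 and passed (adjusted p = 0.0478), and it also passed without knockout library S1 (0.72; adjusted p = 0.0448), without knockout library 3 (0.72; adjusted p = 0.0346), with the DESeq2 test (adjusted p = 0.0222) and without a filter (adjusted p = 0.00469). The 5p share of miR-23b was 0.399, 0.682 and 0.404% in the knockout libraries, against 0.455, 0.524 and 0.497% in the ERβ libraries. Knockout library S2 lay above and the other knockout libraries below the ERβ libraries.

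miR-23a-5p was too rare to test, with 7, 18 and 4 counts in the knockout libraries, against 3, 5 and 5 counts in the ERβ libraries. Knockout library S2 held most of the knockout counts. With so few counts of the a copy, the 9q22 share of the miR-23 5p strands was 97.0, 95.9 and 98.1% in the knockout libraries, against 98.3, 98.2 and 98.1% in the ERβ libraries, and the knockout libraries lay below or level with the ERβ libraries. This ratio and the 5p share of miR-23a each had an exact permutation p of 0.10. miR-24-2-5p had 18, 16 and 13 counts in the knockout libraries, against 18, 17 and 22 counts in the ERβ libraries. Its log2 fold change was 0.03 ± 0.27, with a 95% interval of -0.57 to 0.62. A change within that interval is not excluded at this depth. miR-24-1-5p, the 5p strand of the 9q22 hairpin, had 9, 5 and 7 counts in the knockout libraries, against 2, 7 and 7 in the ERβ libraries, and was not tested.

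Because both copies carry the same seed, their guides were also summed. The miR-23 guides together had 15376, 14793 and 15086 CPM in the knockout libraries, against 12172, 11626 and 11888 CPM in the ERβ libraries. The miR-27 guides together had 25614, 24540 and 26336 CPM in the knockout libraries, against 19521, 19524 and 20984 CPM in the ERβ libraries. Neither sum overlapped between the groups, and the log2 ratios of the means were 0.34 and 0.35 (exact permutation p = 0.10 for each, n = 3 each). With library totals they were 0.19 for each.

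Related miRNAs were taken by fixed rules, 14 in all, of which 12 could be tested; 2 were higher in knockout cells and 0 lower, where 13.3% of all tested miRNAs were higher and 9.83% lower. By shared seed these were miR-23c, on the X chromosome, and miR-9985, which RefSeq places on the Y chromosome. miR-23c had 5.45, 5.12 and 6.82 CPM in the knockout libraries, against 4.78, 3.74 and 4.80 CPM in the ERβ libraries, apart from each other but not past the test (0.38 ± 0.18, adjusted p = 0.172). Of its 6 counts 4 were fractions, and whether these are reads of miR-23a or miR-23b was not tested. miR-9985, which has the miR-27 seed and the first 15 bases of miR-27a-3p, had a log2 fold change of 0.41 ± 0.13 (adjusted p = 0.0459). All 6 of its counts were fractions, so the call is one of the counts under that name; whether these are reads of miR-27 was not tested. miR-128-3p, whose seed is that of miR-27 shifted by 1 base, averaged 4918 ± 613 CPM in knockout and 4707 ± 59.1 CPM in ERβ cells and did not pass (0.06 ± 0.09; adjusted p = 0.669). miR-3074-5p and miR-3074-3p, from the strand opposite MIR24-1, averaged 2.76 and 0.922 CPM in knockout and 2.49 and 1.24 CPM in ERβ cells, and neither passed (adjusted p = 0.712 and 0.407).

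Neighbouring hairpins on the same bands were compared as well. On 19p13, 38.1 kb from MIR23A and on the other strand, miR-181c-5p averaged 13.96 ± 2.95 CPM in knockout and 10.2 ± 0.444 CPM in ERβ cells (0.45 ± 0.17; adjusted p = 0.0904). miR-181c-3p (0.30 ± 0.14) and miR-181d-5p (0.09 ± 0.19) did not pass either, and miR-181d-3p was too rare to test. On 9q22, 906 kb from MIR23B and on the same strand, let-7d-5p, a member of the growth-restraining let-7 family, was higher in knockout cells (0.25 ± 0.07; adjusted p = 0.0247), with 4276, 4647 and 4279 CPM in knockout libraries, against 3789, 3594 and 3718 CPM in ERβ libraries. Its partner strand let-7d-3p (0.19 ± 0.11), let-7a-3p (-0.00 ± 0.09) and let-7f-1-3p (-0.03 ± 0.11) did not pass. All 6 counts of let-7a-3p were fractions, and whether its reads come from 9q22 alone was not tested.

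The miRNAs whose level followed the guides most closely were sought among the 186 others that averaged at least 100 CPM, by Pearson's r of log2 CPM over the 6 libraries. For the mean of the b copies these were miR-497-5p and miR-195-5p (r = 0.999 each) and miR-424-5p (r = 0.998). For the mean of the a copies the same 3 led with r = 0.973 each. All 3 were higher in knockout cells, miR-195-5p with 510 CPM in knockout and 254 CPM in ERβ cells, miR-497-5p with 510 CPM in knockout and 310 CPM in ERβ cells, and miR-424-5p with 1196 CPM in knockout and 560 CPM in ERβ cells. The 6 libraries share the same 2 groups and the guides were higher in knockout libraries, so a high r already carries that direction. Both r and the direction are given as a description.

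**Figure D5:**
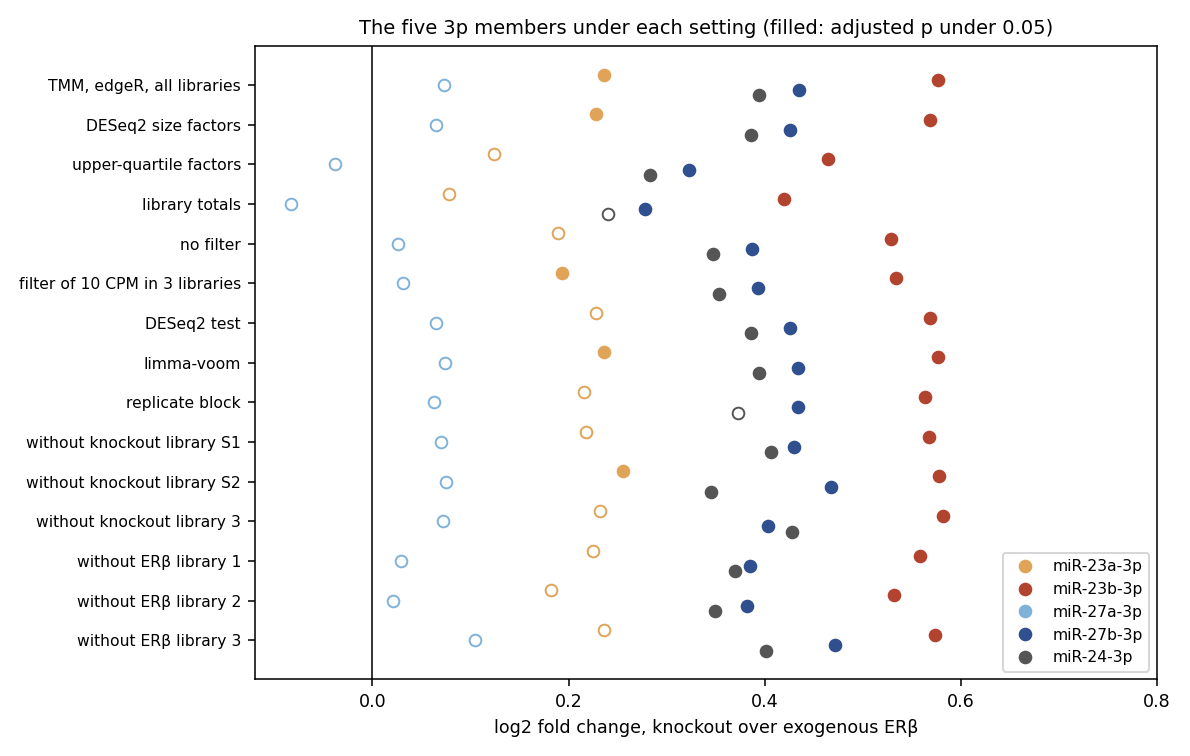
Log2 fold change, knockout over exogenous ERβ, of the 3p members under each alternative scaling, filter and test and with each library left out; filled points have an adjusted p under 0.05. miR-23b-3p and miR-27b-3p are filled in every row and miR-27a-3p in none, where miR-27a-3p runs from -0.08 to 0.10.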

How the data were processed

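Small RNA libraries of 6 KPL4 samples were made with a QIAseq miRNA kit, per the labels' protocols. FastQC, Trim Galore and GRCh38 are named, per the submitters' processing notes. Neither aligner nor counter, nor how shared reads or molecular identifiers were handled, is stated in the sources used here. The deposited table gives each mature miRNA an expected count; 6.33 to 7.27% of the values in a library are fractions. Columns were assigned by name; 2 knockout columns carry the number 1, none the number 2, and these are called S1 and S2 after their index.

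Expected counts were rounded and fitted in R 4.3.3 with edgeR 4.0.16 (filterByExpr, minimum count 10 and total 15; TMM scaling; robust quasi-likelihood test; Benjamini-Hochberg adjustment over 783 miRNAs at 0.05, of which 269 had an unadjusted p under 0.05), all 6 libraries, no covariate. Standard errors were derived from the fitted log2 change and its F statistic. A floor of 3 counts is 0.201 to 0.305 CPM. Shares and sums used the values as deposited and exact two-sided permutation tests (scipy 1.17.1). Alternatives were DESeq2 1.42.0, limma 3.58.1 (voom), other scalings and filters, a replicate block and each library left out. The fit was also run on counts simulated from the means and dispersions of these data, which cannot show how well it suits these libraries. Positions and sequences are from RefSeq (GRCh38.p14) and hosts from GENCODE release 29 (GRCh38). The text names all 10 members, related miRNAs by seed, hairpin or band, and the 3 most alike per copy. Members, lists and rules were chosen with earlier results of these data known. The labels do not state that replicates are separate cultures; the p-values reflect the spread among these libraries alone.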

Additional observations from a re-analysis of the deposited data

How the results depend on the processing

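The calls of miR-23b-3p and miR-27b-3p held in all 14 alternatives, with log2 fold changes of 0.42 to 0.58 and 0.28 to 0.47. miR-24-3p held in 12 of 14 and miR-23a-3p in 4 of 14. The count of higher members was 2 with library totals and 2 with the replicate block, and 3 to 6 with a library left out; the count of lower members was 0 in every alternative. Over all miRNAs the counts were 61 higher and 146 lower with library totals, 70 higher and 123 lower with upper-quartile factors, 66 higher with the filter of 10 CPM in 3 libraries, 50 higher and 38 lower with the replicate block, and 58 to 157 higher and 49 to 122 lower with a library left out (157 and 122 without knockout library S2). Signs turned for miR-27a-3p (-0.038 with upper-quartile factors, -0.0826 with library totals), miR-27b-5p (-0.045 with library totals), and miR-24-2-5p (-0.0838 with upper-quartile factors, -0.13 with library totals, -0.022 without a filter, -0.15 with the replicate block, and -0.15 to 0.092 with a library left out). The difference in the 5p share of miR-23b ranged from -0.0911 to 0.0503 percentage points with a library left out. The causes were not tested. The replicate block used the numbers in the column names, which identify a single unambiguous pair, knockout library 3 and ERβ library 3. Knockout libraries S1 and S2 and ERβ library 1 fell in the same block. ERβ library 2 was alone in its block, so it added nothing to the comparison of the groups in that setting. Deviations from the group means correlated at 0.123 in this pair, where all pairs across the groups ran from -0.103 to 0.134. The labels do not say that a number marks a shared batch, and whether this pair shares a batch was not tested. Under the replicate block miR-24-3p (adjusted p = 0.0593) and miR-23a-3p (adjusted p = 0.241) did not pass. Depth limits miR-23a-5p and miR-24-2-5p, at 22 counts or fewer per library. Intervals cover the spread between these libraries only.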

Other observations

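Within a cluster the hairpins lie close together on the same strand and may share a primary transcript, which was not measured here. The ratio of their guides was computed in each library as a description, without a test. In the 19p13 cluster miR-23a-3p had 1.87, 1.79 and 1.84 counts per count of miR-27a-3p in the knockout libraries, against 1.71, 1.63 and 1.57 in the ERβ libraries. In the 9q22 cluster miR-23b-3p had 0.257, 0.267 and 0.243 counts per count of miR-27b-3p in the knockout libraries, against 0.241, 0.234 and 0.220 in the ERβ libraries. The groups did not overlap in either cluster. The log2 ratio of miR-23 to miR-27 differed between the groups by 0.16 ± 0.04 in the a copy and by 0.14 ± 0.06 in the b copy (SE, n = 3 per group). Whether these 2 differences differ from each other was not tested.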
